A study of Homo sapiens with 12 samples.

Results

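Among the adenosines that carried substituted reads in an m6A map of HEK293E cells, 1228 positions held at least 10 substituted reads with a substituted share below 50% in at least 1 of 2 conditions. They are described here as strongly substituted sites, a name that refers to the number of substituted reads and not to a high share. Among the chosen sites the share went down to 1.47% with insulin and 0.314% with insulin+Torin1. They were 0.924% of the 132871 positions listed. HEK293E is an established line that was made from cells of the human embryonic kidney. All cells had been starved of serum overnight and then given 200 nM insulin for 30 h, and in one condition they had first received Torin1 at 250 nM, which blocks the mTOR kinase. The 12 samples formed 4 groups of 3, namely insulin miCLIP, insulin+Torin1 miCLIP, insulin input and insulin+Torin1 input, and all came from poly(A) RNA. Both conditions share the starvation and the insulin, so no sample shows the cells without insulin or with Torin1 alone.

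N6-methyladenosine (m6A) is the most common internal modification of mRNA. A nuclear writer complex built around METTL3 and METTL14 places it at adenosines in the DRACH context (D stands for any base but C, R for a purine and H for any base but G), mostly in long exons, near stop codons and in 3′ untranslated regions. YTH proteins read the mark, and it is best known for shortening the life of mRNAs. In miCLIP an antibody against m6A is crosslinked to RNA, and the crosslink leaves substitutions in the sequencing reads beside the methylated base. The substituted share of a site is the part of its reads that carry the substitution. It depends on how often the crosslink leaves a substitution, so it is not the fraction of molecules methylated.

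The number of substituted reads chose the sites, so their high values are a description and not a result. In the insulin list 627 of 96671 sites met the rule (0.649%), with a median of 12 substituted reads, a median of 100 reads and a median share of 13.6%. In the insulin+Torin1 list 855 of 63578 sites met it (1.34%), with a median of 13 substituted reads, a median of 187 reads and a median share of 7.81%. Both lists chose 254 of these positions, which is 40.5% of the insulin choice and 29.7% of the insulin+Torin1 choice. Another 373 were chosen with insulin alone and 601 with insulin+Torin1 alone. Just outside the rule, 200 insulin sites had 9 substituted reads and a median share of 16.1%, against 136 sites with 10 and a median share of 14.1%. For insulin+Torin1 the corresponding numbers were 219 sites at 9.18% and 152 sites at 7.87%. At the upper limit, 20 insulin sites had a share from 40% to below 50%, and 9 had a share from 50% to below 60%. In the insulin+Torin1 list these numbers were 7 and 4.

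The lists give each position once per condition, under a single replicate, so no substituted share has a replicate check, and the intervals printed with shares are 95% Wilson intervals that cover counting error only. Replicate 1 carried nearly all of the strongly substituted sites. Among the insulin choices 605 were listed under replicate 1, 22 under replicate 2 and 0 under replicate 3, and all 855 insulin+Torin1 choices were listed under replicate 1. Without insulin+Torin1 replicate 1 the rule gave 627 sites in 355 genes. Reads summed over the listed sites numbered 1026159, 609365 and 23563 for insulin replicates 1 to 3, and 2309379, 4084 and 16709 for insulin+Torin1 replicates 1 to 3. Any difference in sites between conditions therefore compares essentially 2 libraries, of which the insulin+Torin1 library had more reads over its sites. The part of this difference in depth in the larger number of insulin+Torin1 choices was not tested.

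The letters around the methylated base set these sites apart from the rest of the lists. Every listed site, strongly substituted or not, carried a DRACH 5-mer with the listed adenosine at position 3. The sequence shown for each 5-mer below has that adenosine in capitals. The 5-mers most frequent among the strongly substituted sites, in falling order, and then the least frequent of all, were:
most frequent: ggAca
next: ggAct
followed by: agAct
then: gaAct
least frequent: taAcc
The 5-mer ggAca was found at 307 of the 1228 sites (25%) and at 12.9% of all other listed sites. For ggAct the shares were 19.7% (242 sites) and 10.9%. The 5-mer agAct made up 11.3% (139 sites) against 8.29%, and gaAct 9.04% (111 sites) against 8.72%. The 5-mer taAcc occurred at 1 strongly substituted site and at 0.678% of all others. Put the other way, 17.8 of every 1000 listed ggAca positions were strongly substituted, against 1.12 of every 1000 listed taAcc positions.

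The 4 letters GGAC, counted on the strand of the site with any base after them, stood at 622 of the 1228 sites (50.7%, 47.9 to 53.4) and at 30.8% of the 131643 other sites. A final cytosine was the rare ending, at 8.79% of strongly substituted sites against 18.3% of the others. These shares were nearly the same in both conditions, with GGAC at 50.2% of the sites chosen in each list. The share with GGAC grew with the number of substituted reads. In the insulin list it was 30.0% at sites with 1 substituted read, 35.4% at 3 to 4 reads, 40.7% at 5 to 9 reads and 50.2% at 10 to 19 reads. In the insulin+Torin1 list it was 31.6%, 39.1%, 41.9% and 49.7% at the same steps. Well-covered sites with few substituted reads did not share this letter pattern. Among 1819 sites with 100 or more reads but at most 2 substituted ones, a comparison group chosen after the data were seen, 29.5% held GGAC and 39.8% ended in cytosine. The 45 positions with 10 or more substituted reads that stayed outside because their share reached 50% or more also differed, with GGAC at 31.1%.

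**Figure D1:**
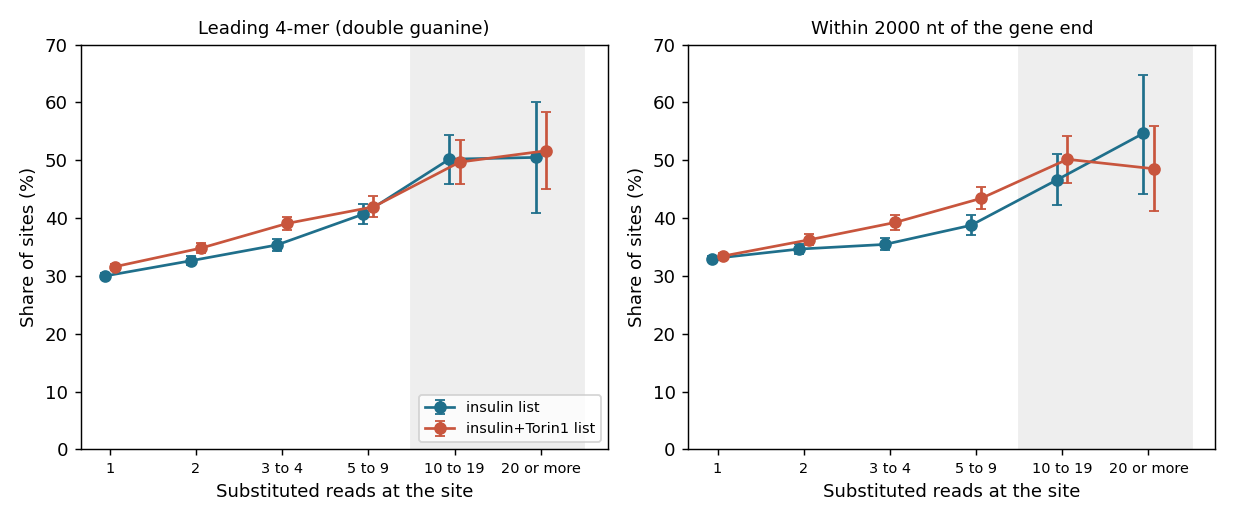
Share of sites in percent (y axis) with GGAC (left) and within 2000 nt of the gene end (right), by the number of substituted reads (x axis), in each list for sites with a share below 50%; points are shares, bars are 95% Wilson intervals, and the grey area marks 10 or more substituted reads. GGAC rises from 30.0% to 50.5% in the insulin list and from 31.6% to 51.6% in the insulin+Torin1 list.

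The files give no exon or untranslated region for a site, so place was measured in RefSeq gene bodies. Of the 1228 sites, 1099 (89.5%) lay in exactly 1 protein-coding gene on their strand, 20 in more than 1 and 109 in none. The 1099 sites fell in 676 genes, of 11042 genes that held any listed site. Strongly substituted sites were near the annotated end of the gene more often than the others, with 537 of 1099 (48.9%, 45.9 to 51.8) within 2000 nt of it against 31.9% of 106870 other sites. Their median distance to the end was 2100 nt, against 3959 nt. This closeness was shared by well-covered sites that were hardly substituted, of which 47.2% lay within 2000 nt of the end. The relative place in the gene did not set the sites apart either, since 55.3% lay in the final 20% of the gene body and 56.1% of the others did. The median body of the gene around a strongly substituted site was 17222 nt, against 38861 nt for the other sites. A single strongly substituted site was far enough inside a RefSeq promoter window to read its surroundings. It lay in HTRA2, which encodes a mitochondrial serine protease, at chr2:74529894-74529918 on the plus strand of GRCh38, shown here with its 5-mer in capitals:
HTRA2: cacttctgaaGGACTtcaggtaccg
It had 10 substituted of 58 reads with insulin and 1 of 5 with insulin+Torin1. It stood at -27 bases from the gene start of its promoter window, although inside the annotated gene body.

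Most of the genes held a single site, and some held many. Of the 676 genes, 488 held 1 strongly substituted site, 91 held 2, 76 held 3 to 5 and 21 held 6 or more. Another strongly substituted site lay within 100 nt of 341 sites (27.8%) and within 500 nt of 588 (47.9%). The same distances were not measured among the other listed sites, so these values have no background. Neighbouring sites can be covered by the same reads, so they are not independent of each other. The 12 protein-coding genes with the most sites encode a translation factor, transcription regulators, RNA-binding proteins and signalling proteins. They are described in turn. For each gene, and for XIST further below, the sites with any decrease of the share with Torin1 are counted. Over all 16496 sites with at least 10 reads in both lists, the median ratio of insulin+Torin1 to insulin share was 0.625. A lower share was thus the common direction at listed sites. Sites with any decrease were not counted in that background, so the counts do not show a gene-specific change. Expression values are those of the 3 insulin and the 3 insulin+Torin1 input libraries, in the authors' normalized units. As the background for these calls, 86.0% of the 13842 genes tested with limma passed an adjusted p of 0.05, with 43.4% higher and 42.5% lower with Torin1, and in 86.3% the 2 groups of libraries did not overlap.

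EEF2, the elongation factor that moves the ribosome along the mRNA, held 15 sites on the minus strand of chromosome 19, the most of any protein-coding gene. They lay 107 to 8257 nt from the gene end, 11 of them within 2000 nt. The leading site, chr19:3976468 with the 5-mer agAct, had 94 substituted of 2048 reads with insulin (4.59%, 3.77 to 5.58) and 292 of 8325 with insulin+Torin1 (3.51%, 3.13 to 3.92). The ggAca site at chr19:3976564 had 50 of 443 reads (11.3%) with insulin and 69 of 1874 (3.68%) with insulin+Torin1. The share was lower with Torin1 at 11 of the 15 sites, with a median of 3.76% with insulin and 2.69% with insulin+Torin1. Expression of EEF2 was 69562, 64159 and 64393 units with insulin and 92766, 92165 and 94659 with insulin+Torin1, and the groups did not overlap. The log2 fold change was 0.50 (SE 0.03, limma adjusted p = 2.88e-13), and it was 0.0 after quantile normalization. That method gives equal values to a gene that keeps its rank in every library. The 0.0 therefore cannot tell whether EEF2 changed.

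ZNF503, a zinc finger transcriptional repressor, held 14 sites, all with a lower share with Torin1. The medians were 8.80% with insulin and 3.04% with insulin+Torin1. At chr10:75400178 (ggAca) 12 of 64 reads were substituted with insulin and 2 of 398 with insulin+Torin1, and at chr10:75400014 (ggAca) 33 of 309 and 39 of 887. These 14 sites stood 118725 to 120453 nt from the annotated gene end of a 122192 nt body, near its start, which shows how the distance depends on the longest annotated transcript. Expression was 2519, 2262 and 2281 units with insulin and 3514, 3536 and 3613 with insulin+Torin1, without overlap (log2 fold change 0.60, SE 0.04, limma adjusted p = 1.39e-12).

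SON, a nuclear speckle protein needed for splicing, held 10 sites within a stretch 22988 to 27640 nt from the gene end. Their median share was 11.6% with insulin and 5.29% with insulin+Torin1, and it was lower with Torin1 at 9 of 10. The exception, chr21:33551486 (ggAct), had 3 of 82 reads substituted with insulin and 26 of 283 with insulin+Torin1. SON expression was 10284, 10550 and 10052 units against 9339, 9431 and 9230, a log2 fold change of -0.14 (limma adjusted p = 9.7e-05) that did not pass with libraries scaled to equal totals (-0.02, adjusted p = 0.60). The change was thus small and tied to the scaling.

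WDR6, which encodes a tRNA methylation cofactor, held 9 sites, 8 of them lower with Torin1. Here the favoured letters were few, with GGAC at 2 of the 9 and tgAct at 5. The median share was 7.73% with insulin and 4.11% with insulin+Torin1, and expression fell from 5048, 4870 and 4498 units to 3532, 3498 and 3575.

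IRS2, the adaptor that carries the signal of the insulin receptor, held 9 sites, of which insulin+Torin1 chose all 9 and insulin 2. Its share was nonetheless lower with Torin1 at 8 of the 9, with medians of 16% and 7.26%. Reads summed over the 9 sites numbered 542 with insulin and 2701 with insulin+Torin1, and the part of these reads in the number of choices was not tested. The exon of each site was not determined, but 7 of the 9 lay at least 29632 nt from the gene end in a body of 33889 nt. At chr13:109782327 (agAcc) the share was 25.9% (15 of 58 reads) with insulin and 25.4% (30 of 118) with insulin+Torin1. IRS2 expression rose from 3260, 3037 and 2856 units to 5004, 5204 and 5117 (log2 fold change 0.75, SE 0.04).

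ZBTB7B, a zinc finger transcription factor, showed the opposite choice, with 9 sites chosen with insulin and 1 with insulin+Torin1. Its expression was 3070, 3030 and 3011 units with insulin and 532, 625 and 653 with insulin+Torin1, a log2 fold change of -2.34 (SE 0.05). The leading site at chr1:155016423 (gaAct) had 62 of 302 reads substituted with insulin (20.5%) and 17 of 134 with insulin+Torin1 (12.7%). All 8 sites listed in both conditions had a lower share with Torin1, with gene medians of 10.6% and 5.84%.

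FOXC1, a forkhead transcription factor, held 8 sites, all chosen with insulin+Torin1 and none with insulin. Its expression was 2546, 2358 and 2457 units with insulin and 5316, 5482 and 5369 with insulin+Torin1 (log2 fold change 1.14, SE 0.03). Reads over the 8 sites numbered 306 and 1566. The share was lower with Torin1 at 6 of 8, and 7 of the 8 carried GGAC. At chr6:1612583 (ggAct), which went the other way, 2 of 16 reads were substituted with insulin and 17 of 57 with insulin+Torin1.

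The remaining genes each held 7 sites. IRF2BP2, a transcriptional corepressor, had a lower share with Torin1 at 7 of 7 sites, and its expression of 2679, 2461 and 2361 units against 2429, 2517 and 2444 overlapped between groups (log2 fold change -0.02, limma adjusted p = 0.66). That value turned to 0.11 (adjusted p = 0.019) with equal totals and to 0.29 with quantile normalization. EFNB2, the ligand ephrin-B2, held its 7 sites within 3054 to 3434 nt of the gene end, with a lower share at 6. PRRC2B, a translation-associated protein, had a lower share at 5 of 7. RHOB, a small GTPase, held all 7 sites within 2000 nt of the gene end, with a lower share at 5 of the 6 listed in both. HNRNPF, a splicing factor, had a lower share at 6 of 7. Expression of EFNB2, PRRC2B, RHOB and HNRNPF fell, with log2 fold changes of -0.76, -0.91, -0.89 and -0.98, and in none of the 4 did the groups overlap. KCTD12 also held 7 sites and ranked next by substituted reads.

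**Figure D2:**
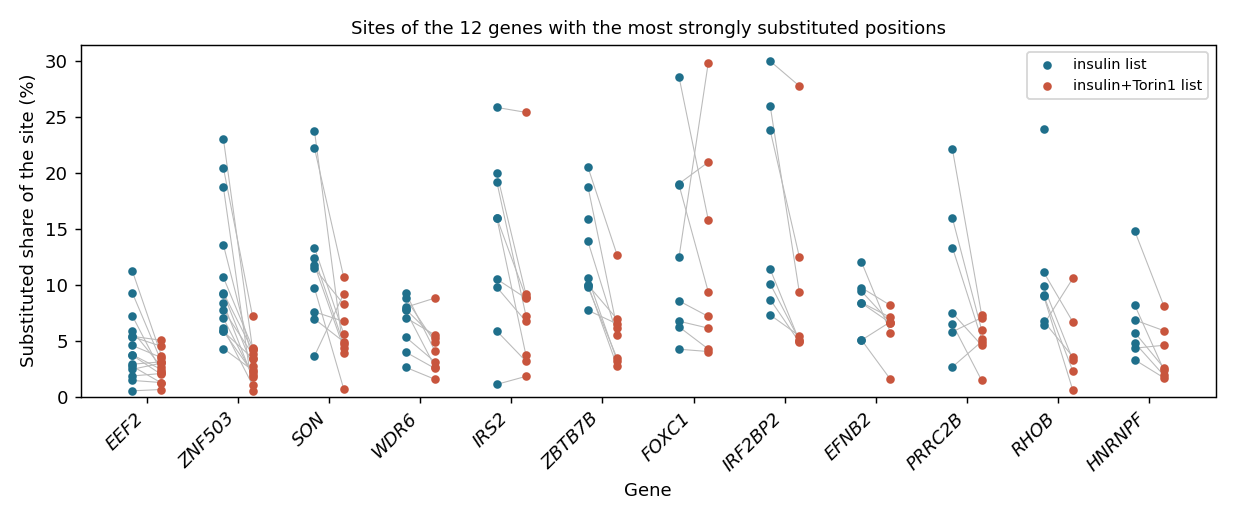
Substituted share in percent (y axis) of each strongly substituted site in the 12 protein-coding genes with the most of them (x axis), with insulin (blue) and insulin+Torin1 (red). Grey lines join the values of 1 site, and a point without a line was listed in 1 condition. All 14 ZNF503 sites and all 7 IRF2BP2 sites fall from left to right, whereas 4 of 15 EEF2 sites and 2 of 8 FOXC1 sites go up.

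Sites chosen in one condition were nearly always listed in the other. Of the 627 insulin sites 587 (93.6%, 91.4 to 95.3) were in the insulin+Torin1 list, against 27.9% of all other insulin sites. Of the 855 insulin+Torin1 sites 837 (97.9%, 96.7 to 98.7) were in the insulin list, against 42.3% of all other insulin+Torin1 sites. Coverage differed too, with a median of 130 reads in the other list at the 587 sites and 26 reads at the other insulin sites listed there, and its part in the recurrence was not tested. Both shares rest on positions listed under replicate 1: without insulin+Torin1 replicate 1 the first was 2.23%, and without insulin replicate 1 the second was 7.37%. Each position is listed under 1 replicate only, so these values cannot show whether the other replicates also held the sites. The share seen in the list that had not made the choice was lower in one direction only. Sites chosen with insulin had a median share of 13.4% there and 5.99% with insulin+Torin1, whereas sites chosen with insulin+Torin1 had 7.77% there and 9.30% with insulin.

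The substituted share was lower with Torin1 at most of these sites, and it was so at listed sites in general. Over the 1130 strongly substituted sites with at least 10 reads in both lists, the median share was 10.5% with insulin and 6.75% with insulin+Torin1. The median difference of insulin+Torin1 minus insulin was -3.04 percentage points, and the median ratio was 0.667. The share was at least 1.5-fold lower with Torin1 at 564 sites (49.9%), where the background was 53.2% of all 16496 sites with that many reads. It was at least 1.5-fold higher at 155 sites (13.7%), where the background was 16.1%. Both shares were near the background. Without insulin replicate 1, 68 sites remained, with 36.8% lower and 27.9% higher, and without insulin+Torin1 replicate 1 only 2 remained. The small numbers follow from the listing of each position under 1 replicate. With 100 or more reads in both lists, 381 sites had medians of 6.49% and 3.61%.

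The choice itself fixes part of the direction, because a site is chosen where its substituted reads are many. The 320 sites chosen with insulin alone had a median ratio of 0.350, the 254 chosen in both lists 0.598 and the 556 chosen with insulin+Torin1 alone 1.02. The last group thus had about equal median shares, 8.08% with insulin and 7.91% with insulin+Torin1, although the choice favoured the insulin+Torin1 list. With reads summed over its sites, the shares were 5.3% with insulin and 4.4% with insulin+Torin1. Its coverage differed, with a median of 49 reads with insulin and 171 with insulin+Torin1, and the part of coverage in the choice was not tested. The sites chosen with insulin alone had nearly equal coverage, with 81 and 79 reads. Sites with GGAC had a median ratio of 0.648, close to the 0.667 of all strongly substituted sites.

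**Figure D3:**
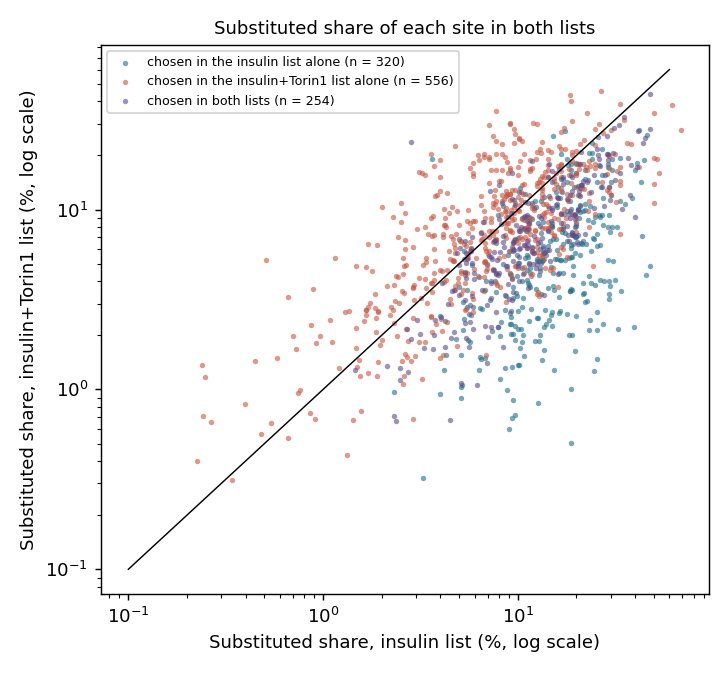
Substituted share of 1130 strongly substituted sites with at least 10 reads in both lists, with insulin (x axis, %) and insulin+Torin1 (y axis, %), both on log scales; each point is a site, coloured by the list that chose it, and the line marks equal shares. The 320 sites chosen with insulin alone lie mostly below the line (median ratio 0.350), and the 556 chosen with insulin+Torin1 alone lie on both sides of it (1.02).

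Named by the size of the difference at sites with at least 50 reads in both lists, the largest rise was at chr15:46446638 on the minus strand (aaAct), in no annotated gene, where 55 of 1951 reads were substituted with insulin (2.82%, 2.17 to 3.65) and 151 of 639 with insulin+Torin1 (23.6%, 20.5 to 27.1). Here the reads were fewer and the substituted reads more with Torin1, and the intervals are far apart. The rises that followed had few substituted reads. ABL1, a tyrosine kinase gene, went from 6 of 50 to 23 of 76 reads at chr9:130885427 (gaAct). SLBP, which binds the stem-loop of histone mRNAs, went from 7 of 69 to 15 of 61 at chr4:1693616 (agAct). The other rises lay in PGP (10.5% to 23.9%), TRIM11 (6.32% to 18.8%) and TBC1D10B (7.14% to 19.1%), and in all 5 of these genes the intervals of both conditions overlapped.

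The largest fall was in TOP3A, a DNA topoisomerase gene, at chr17:18277783 (ggAct), with 22 of 65 reads substituted with insulin (33.8%, 23.5 to 46.0) and 2 of 57 with insulin+Torin1 (3.51%, 0.968 to 11.9). In MBD3, a component of the NuRD chromatin complex, the share at chr19:1576929 (ggAcc) went from 24 of 70 reads (34.3%) to 24 of 238 (10.1%). ZNF512B went from 15 of 61 to 1 of 79, WNK1, a kinase that controls ion transport, from 17 of 64 to 8 of 196, EHD1, an endocytic recycling protein, from 21 of 72 to 6 of 75, and MCRIP1 from 21 of 55 to 18 of 102. All 6 sites were GGAC or agAca sites, and in each the insulin interval lay above that of insulin+Torin1. These sites were picked for their difference, so it is a description of 2 libraries.

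Few strongly substituted sites were listed in a single condition, 40 with insulin and 18 with insulin+Torin1. The insulin sites with the most substituted reads lay in JUNB, a component of the AP-1 transcription factor (chr19:12792092, ggAca, 26 of 63 reads), where the annotated genes NDOR1 and LOC122513141 overlap (chr9:137219235, gaAca, 20 of 96), in SH2B3, an adaptor that restrains cytokine signalling (chr12:111448229, ggAct, 17 of 79), and in HASPIN, a mitotic histone kinase gene (chr17:3725486, ggAcc, 16 of 33). Expression of JUNB, SH2B3 and HASPIN was lower with Torin1, by log2 fold changes of -3.37, -3.11 and -2.20. The insulin+Torin1 sites lay in CST3, the protease inhibitor cystatin C (chr20:23633842, ggAct, 24 of 114), at a pair of positions in the ribosomal protein gene RPL13 (chr16:89563056, ggAct, 19 of 1231, and chr16:89563110, gaAca, 15 of 551) and in the long noncoding RNA MIR34AHG (chr1:9151191, tgAct, 14 of 234). CST3 was expressed at 198, 123 and 137 units with insulin and 586, 602 and 642 with insulin+Torin1, and RPL13 at 9092, 8869 and 9063 against 17761, 17532 and 18292. Ribosomal protein genes have many pseudogene copies that can share reads. In these 5 genes, whose sites were picked for their substituted reads, expression was higher in the condition that listed the site. JUNB and RPL13 also held strongly substituted sites that were listed in both conditions. The part of expression in the listing was not tested.

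The other leading sites by substituted reads, or by 5-mer, differed in direction. The site with the most substituted reads of all, chr2:108533177 (aaAca) in the long noncoding RNA GCC2-AS1, had 397 of 3907 reads with insulin (10.2%, 9.25 to 11.1) and 395 of 3139 with insulin+Torin1 (12.6%, 11.5 to 13.8). In ACTG1, which encodes cytoplasmic gamma-actin, chr17:81510685 (ggAct) had 68 of 706 (9.63%) and 225 of 2115 (10.6%). In EIF4G1, the scaffold of the cap-binding complex, the gaAct site at chr3:184321790 had 61 of 221 (27.6%) and 31 of 296 (10.5%), whereas the tgAca site at chr3:184321572 had 15 of 100 and 27 of 165 (16.4%). In NRARP, a Notch pathway inhibitor, the ggAcc site at chr9:137301572 had 67 of 260 (25.8%) and 28 of 140. A site at chr7:93202030 (aaAcc) in no gene annotated on its strand had 107 of 324 (33.0%) and 60 of 202 (29.7%).

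The genes that held strongly substituted sites were lower with Torin1 more often than the table as a whole. They entered through substituted reads in either list, which grow with the abundance of the mRNA, so the counts are a description. Of the 665 of 676 genes that were tested, 386 (58.0%) fell and 237 (35.6%) rose with limma, where the background was 42.5% and 43.4%. Their median log2 fold change was -0.31, against 0.02 for all tested genes. With libraries scaled to equal totals the median of all genes moved to 0.15 and that of these genes to -0.18, with 349 falls and 263 rises. With quantile normalization the median of these genes was -0.10, with 334 falls and 273 rises, against 0.00 for all genes. Genes with listed sites but no strongly substituted one were close to the table, with 44.4% lower and a median of -0.02. The genes holding strongly substituted sites were also expressed more highly, at a median of 1564 units over the 6 libraries against 534 for those other genes.

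The list that chose a site went with the direction of its gene. In 176 tested genes whose sites were chosen with insulin alone, 162 (92.0%) fell, 8 rose and the median log2 fold change was -1.20. In 317 genes with sites chosen with insulin+Torin1 alone, 195 (61.5%) rose, 100 fell and the median was 0.30. In 172 genes with choices in both lists, 124 (72.1%) fell and the median was -0.44. The rule counts substituted reads, which grow with the abundance of the mRNA, so this grouping is not independent of expression, and the counts are given as a description.

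**Figure D4:**
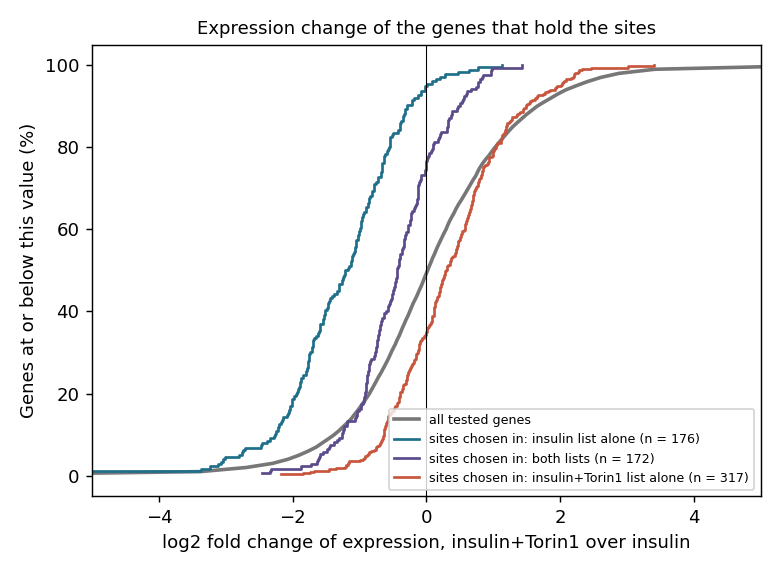
Cumulative share of genes in percent (y axis) by log2 fold change of expression, insulin+Torin1 over insulin, from the 6 input libraries (x axis), for all tested genes (grey) and for genes grouped by the list that chose their sites. The curve of sites chosen with insulin alone lies left of all tested genes (median -1.20), and that of insulin+Torin1 alone lies right of it over most of its length (0.30).

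Coverage of the sites followed expression and the substituted share followed it little. Across 635 genes with strongly substituted sites in both lists, the log2 ratio of reads summed over these sites had a Pearson correlation of 0.82 and a Spearman correlation of 0.85 with the log2 fold change of expression. For the log2 ratio of the substituted share these values were 0.12 and 0.17. The substituted reads that chose the sites also enter the share, and they are part of the reads over the sites. The correlations of reads and of share are therefore descriptions, and the part of the choice in them was not tested. The points share 1 main miCLIP library per condition and the same 6 input libraries, and genes are not independent replicates.

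**Figure D5:**
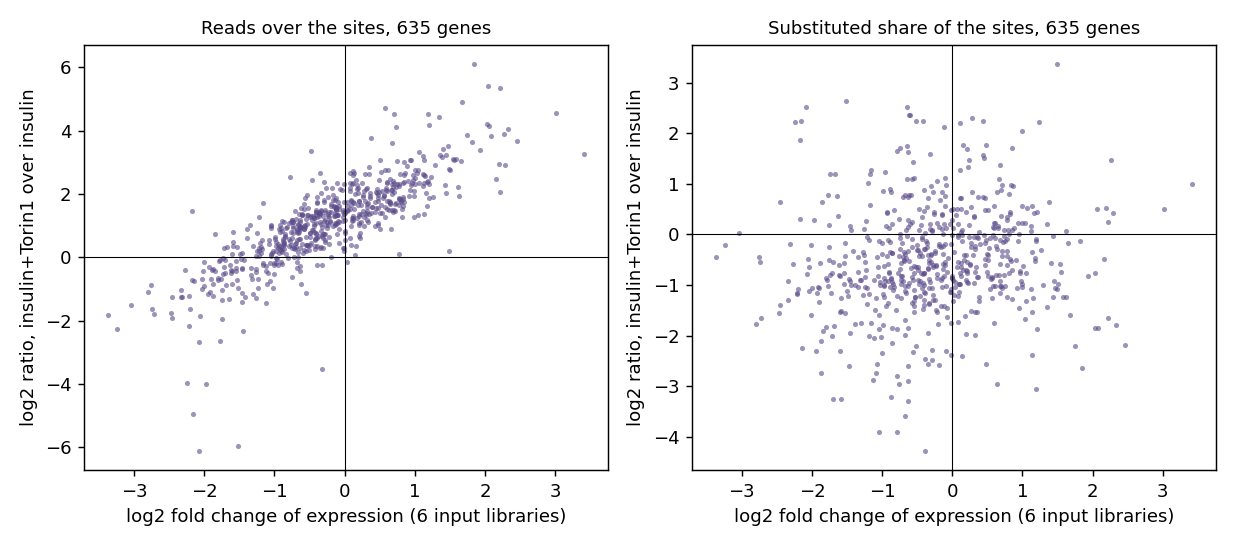
Log2 ratio, insulin+Torin1 over insulin, of reads summed over strongly substituted sites (left, y axis) and of their substituted share (right, y axis) against the log2 fold change of expression (x axis), 1 point for each of 635 genes. Reads rise with expression (Pearson 0.82), and the share shows a wide cloud (0.12).

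Gene groups that could hold such sites were taken from short lists. As the background for their counts, 676 of the 11042 genes with any listed site held a strongly substituted one. Of 35 immediate early and growth signalling genes, 31 had listed sites and 8 held 34 strongly substituted sites. TSC1, a brake on mTOR complex 1, held 6, all chosen with insulin, and its expression was 14157, 14758 and 13970 units with insulin and 1763, 1714 and 1747 with insulin+Torin1 (log2 fold change -3.04, SE 0.03). JUN, of the AP-1 factor, held 4 sites, chosen with insulin alone, and fell by 0.91 on the log2 scale. IER2 held 5 (fold change -1.19) and JUND 3 (-1.60). IRS2 stood apart as the member of the 8 that rose. IER5 held 3 sites, with a fold change of -0.19 that was -0.06 with equal totals (adjusted p = 0.18) and 0.07 with quantile normalization. Of the 34 tested genes of the list, 23 fell and 10 rose, with a median of -0.89.

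Among 25 nuclear speckle and splicing genes, 8 held 23 sites, and of the 25 tested genes 14 rose and 10 fell, with a median of 0.13. Besides SON, SRRM2 and SRSF5 held 3 each, DDX17 and THRAP3 held 2, and PNISR, SRSF1 and SRSF6 held 1. SRSF5, an SR splicing factor, rose by 0.85 (SE 0.03) from 4079, 4189 and 4340 units to 7784, 7618 and 7252. The values of SRRM2 (-0.11), DDX17 (0.20) and SRSF1 (-0.00, adjusted p = 0.98) each changed sign under another scaling. Among 35 chromatin and transcription regulators, 8 held 15 sites, 6 of them in SPEN, a transcriptional corepressor that binds XIST, whose expression rose by 0.36. ARID1B and TRRAP held 2 each and rose by 1.18 and 0.86, and CHD3, CHD7, EP300 and KDM5C held 1 each. KMT2C, a histone methyltransferase gene, held 1 site and fell by 1.95. Of the 34 tested genes in that list 20 fell and 14 rose.

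Among 26 translation factors, the 3 with sites were EEF2, EIF4G1 and EEF1A1, with 15, 4 and 2 sites. EIF4G1 fell by 0.53 and EEF1A1, the factor that brings tRNA to the ribosome, rose by 0.98. Reads of EEF1A1 may be split with its near-identical copies. In that list 12 of 25 tested genes rose and 10 fell. Of 23 cytoskeleton genes, 6 held 16 sites. The beta-tubulin gene TUBB4B held 6 and fell by 0.93, whereas ACTG1 held 5 and rose by 0.61, from 25134, 24559 and 24292 units to 38113, 36537 and 38162. ACTB held 2 sites, and MYH9, TUBA1C and VIM held 1 each. VIM, the intermediate filament protein vimentin, rose by 1.44, whereas ACTB, MYH9 and TUBA1C fell by 0.43, 1.07 and 1.00. Of the 23 tested cytoskeleton genes 12 rose and 10 fell. Actin and tubulin genes have near copies elsewhere in the genome, so their values are less certain. In a list of chaperone genes, DNAJB1 held 3 sites and HSP90AA1 held 2. Both encode heat shock chaperones, and they fell by 2.14 and 1.79.

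A further list covered the m6A machinery, with the same background of 676 in 11042 genes. Of 21 writers, erasers and readers, 20 had listed sites and 4 held 7 strongly substituted ones. RBM15B and RBM15, adaptors that bring the writer complex to RNA, held 4 and 1. The reader gene YTHDF1 held 1 and the reader gene IGF2BP1 held 1. RBM15 fell by 1.59, from 1706, 1597 and 1551 units to 534, 510 and 565, YTHDF1 by 0.49 and IGF2BP1 by 0.41. RBM15B had a fold change of -0.23, which became 0.02 with quantile normalization. Of the 21 tested genes in the list 14 fell and 6 rose, with a median of -0.28.

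Outside protein-coding genes, XIST held 47 strongly substituted sites of 256 listed ones, more than any protein-coding gene. XIST is the long noncoding RNA that coats the inactive X chromosome, and its m6A has been tied to RBM15 and RBM15B. All 47 were listed in both conditions, 47 chosen with insulin+Torin1 and 21 with insulin. Their shares were low, with a median of 2.68% with insulin and 1.93% with insulin+Torin1, and 35 of 47 were lower with Torin1. GGAC was found at 11 of the 47. The site with the most substituted reads, chrX:73821120 (ggAct), had 53 of 333 with insulin (15.9%, 12.4 to 20.2) and 211 of 1794 with insulin+Torin1 (11.8%, 10.4 to 13.3). Without EEF2 and XIST, an alternative chosen after the data were seen, 1166 sites remained and the share with GGAC was 51.8%.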

How the data were processed

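miCLIP and poly(A) input libraries were analysed in 12 samples grouped by their titles. Per the submitters' processing notes, hg38, BWA 0.7.1, STAR, DESeq2 1.22.2 and DESeq were used, with no role given. The authors deposited 1 site list per condition, with the library, all reads and substituted reads of each site, its 5-mer, and the substituted share as a fraction. The authors also deposited expression values that they had normalized between libraries by a method not given in the sources used here and rounded, so they were treated as a score and not as counts; their totals were 12424643 to 12528454 units in insulin and 11418114 to 11438881 in insulin+Torin1 libraries. The labels call the replicates biological, without naming separate cultures, and the p-values measure no more than the spread between these libraries.

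Lists were united by chromosome, position and strand. The listed 5-mer matched the RefSeq GRCh38.p14 promoter sequence at all 1893 positions that could be checked. Sites were placed in RefSeq gene bodies of GRCh38.p14. Gene strand came from the promoter table (15843 of 20050 coding genes) or, for 1211 genes, from at least 5 listed sites with 80% on a single strand. In 5999 genes with both, the strands were equal in 96.7%. This rule, its thresholds and the priority of reference strands were chosen after the data were seen, the thresholds out of 5 pairs compared. The 4 mitochondrial genes with sites have other symbols in the expression table and were not matched to it.

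For expression, log2(value + 1) was fitted with limma 3.58.1 (R 4.3.3) with a variance trend, keeping genes that reached 10 in 3 or more libraries. All fold changes use this log2(value + 1) scale, so those of low genes are understated, and calls are Benjamini-Hochberg adjusted p below 0.05. The fit was tested on simulated data. Intervals of shares are 95% Wilson intervals. Pseudocounts, filters, scalings, a replicate block, site thresholds and left-out libraries were the alternatives. The sites and gene lists were chosen with earlier results of these data known. Text names the 12 protein-coding genes with the most sites (ties by substituted reads) and the 8 sites with the most substituted reads. It also names the 6 largest rises and 6 largest falls of the share at 50 or more reads in both lists. Further named are the 4 leading sites of each single list, the leading site of each 5-mer with at least 1% of sites, and genes of 8 lists. Sites on chromosome 8 (26) were counted and not named.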

Additional observations from a re-analysis of the deposited data

How the results depend on the processing

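With 5 substituted reads the rule gave 6369 sites in 2690 genes, GGAC at 42.28%, 41.85% within 2000 nt of the gene end, 75.54% and 90.11% of insulin and insulin+Torin1 choices in the other list and 17.51% with a share at least 1.5-fold higher with Torin1. With 20 reads it gave 256 sites in 146 genes, 98.02%, 99.53% and 8.333%. Using sites under replicate 1 alone, 90.53% of insulin+Torin1 choices were in the insulin list. Within 1000 and 5000 nt of the gene end lay 29.48% and 76.07%. With 50 reads in both lists 11.58% of shares were at least 1.5-fold higher and 53.25% lower with Torin1, and with a ratio of 2, 7.965% and 34.07%. 4 other strand thresholds, compared after the data were seen, gave 664 to 677 genes.

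Leaving out 1 library at a time gave 627 to 1228 sites, 355 to 676 genes, 2.233% to 94.05% and 7.368% to 97.89% of insulin and insulin+Torin1 choices in the other list, and 12.81% to 50% higher and 0.0% to 50.75% lower shares, the values farthest from those reported coming without replicate 1 of either condition. Leaving out a miCLIP replicate removes every position listed under it, whatever the other replicates hold. Of expression, the log2 fold changes of IRF2BP2 and SRSF1 ran from -0.06 to 0.0311 and from -0.0212 to 0.0205 with 1 library left out. Quantile normalization turned DDX17 to -0.124, IER5 to 0.0707, IRF2BP2 to 0.2931, MBD3 to 0.1038, RBM15B to 0.0195, SRSF1 to 0.1957 and WNK1 to 0.1093. Equal library totals turned IRF2BP2 to 0.106, MBD3 to 0.0025, SRRM2 to 0.0174, SRSF1 to 0.1247 and WNK1 to 0.0015. The cause was not tested. Replicate numbers did not pair the samples (correlations of same-numbered deviations -0.0234, 0.00972 and -0.00399), and with a replicate block 235 genes holding sites rose and 383 fell. Of the values of 63 named genes under alternatives, 731 kept direction and call, 9 lost the call and 16 changed sign. Depth of the expression libraries is not known from the rounded values, and the share of a site rests on 1 library per condition.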

Other observations

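Of a list of 8 long noncoding RNAs without XIST, 6 had listed sites, and in 0 of these did a site reach 10 substituted reads. MALAT1 had 27 listed sites with at most 7 substituted reads and at most 293 reads. NORAD had 19 sites with at most 6 substituted reads, and OIP5-AS1 19 with at most 8.

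The mitochondrial genome held 13 strongly substituted sites of 264 listed ones, all 13 chosen with insulin+Torin1 and 2 with insulin. Of these, 4 lay in the ribosomal RNA RNR2, 3 in COX1, 3 in COX2, 2 in CYTB and 1 in COX3, subunits of the respiratory chain. Their substituted shares were 0.238% to 4.51% with insulin and 0.540% to 2.49% with insulin+Torin1, and GGAC stood at 0 of the 13. The transcribed pseudogene C19orf48P held 7 strongly substituted sites, the most of any noncoding gene after XIST.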
